A study of Mus musculus with 2 samples.

Results

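The cells described here are trunk cells of the pancreatic epithelium in which no Neurog3 molecule was captured and few molecules of cell cycle genes were, in wild-type mouse embryos at E14.5. They were chosen by counts of single-cell RNA sequencing, in which each captured RNA molecule carries a unique molecular identifier (UMI) and each cell a barcode. A barcode was a member if it held at least 1000 UMIs with at most 20% from mitochondrial (mt-) genes, at least 3 UMIs of Spp1 and 0 of Neurog3. It also had to hold under 5 UMIs summed over 8 cell cycle genes (Top2a, Mki67, Ccna2, Cdk1, Aspm, Cenpf, Birc5 and Ube2c), under 3 of Chgb, under 10 of Ins1 and Ins2 together, under 3 of Gcg, and under 15 summed over the acinar genes Cpa1, Ctrb1, Pnliprp1 and Clps. This left 178 members among the 1609 barcodes that passed the filters on UMIs and mt- share, out of 1635 in all. By library, 63 of 528 barcodes were members in library 1 (11.9%, exact 95% binomial interval 9.29% to 15.01%) and 115 of 1081 in library 2 (10.6%, interval 8.86% to 12.6%). The intervals cover counting error only, and they overlap.

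The 2 libraries form a single wild-type group, and were made from pancreatic cells that the labels call islet cells, after a flow sort for low and for high Ngn3eGFP, in which green fluorescence reports Neurog3. No treatment, strain or sex is given, and nothing says whether the libraries came from separate embryos or litters, so the p-values below measure only the spread between these samples, which may be technical. The sort sets which cells could be captured, so the shares above are shares of sorted cells and not of the pancreas. The members were set against all other barcodes (465 in library 1 and 966 in library 2) and against the classes that differ from them by a single condition. These were Neurog3-positive trunk barcodes, which met every other condition but held 1 or more Neurog3 UMIs (47 and 100), and cycling trunk barcodes, which held 0 Neurog3 UMIs and 5 or more cell cycle UMIs (16 and 41).

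In the developing pancreas, the epithelium separates into tips, which give rise to enzyme-secreting acinar cells, and a trunk, which gives rise to ducts and to endocrine cells. Trunk cells carry Sox9, a transcription factor of pancreatic progenitors, and Notch signalling through its target Hes1 holds Neurog3 down in most of them. Cells that switch Neurog3 on leave the cell cycle and start an endocrine programme, with Insm1, Neurod1 and Pax4 among its transcription factors.

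The members held 230631 UMIs in library 1 and 304140 in library 2. Their median was 3728 UMIs and 2143 genes per barcode in library 1, and 2529 UMIs and 1611 genes in library 2, against 3222 and 2900.5 UMIs in all other barcodes. Thus the members were deeper than the rest in library 1 and shallower in library 2. The libraries shared 3 barcode names, of which 0 belonged to a member. A doublet caller (Scrublet) marked 12 barcodes in library 1 and 4 in library 2, and 1 of these was a member.

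The trunk label was checked on the markers Spp1, Sox9, Hes1, Anxa2 and Bicc1. Spp1, which encodes the secreted phosphoprotein osteopontin of duct epithelium, chose the members, so its level is given as a description only. It stood at 2918 and 4846 CPM (UMIs of the gene per 1000000 UMIs of the class) in the members of libraries 1 and 2, against 527 and 697 CPM in all other barcodes. Sox9 had a UMI in 84.1% of members in library 1 and 71.3% in library 2. Immune barcodes, with 5 or more UMIs over 10 immune markers, should lack the gene and show what free RNA adds. Doublets among them would add RNA too. They had a Sox9 UMI in 0 of 12 and in 6.25% of 64. Bicc1, an RNA-binding protein of duct epithelium, had a UMI in 85.7% and 87.0% of members, against 16.7% and 3.12% of immune barcodes. Both genes were therefore far above the level of free RNA. Hes1 had a UMI in 31.7% and 52.2% of members, against 0 of 12 and 10.9% of immune barcodes. Anxa2, a membrane-binding annexin, had one in 61.9% and 47.8% of members, against 33.3% and 23.4% of immune barcodes, which sets it less clearly above free RNA. The median depth of the immune barcodes was 3102.5 and 2894 UMIs, between the members' medians of 2529 and 3728. With each barcode thinned to 1000 UMIs, Sox9 had a UMI in 46.0% and 48.7% of members, and Bicc1 in 63.5% and 62.6%.

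Most members carried several trunk markers at once. Beside Spp1, 57 of 63 members in library 1 and 100 of 115 in library 2 held at least 2 of the other 4 markers, and 12 and 25 held all 4. None of the 4 was seen in 1 member of library 1 and in 5 of library 2.

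**Figure D1:**
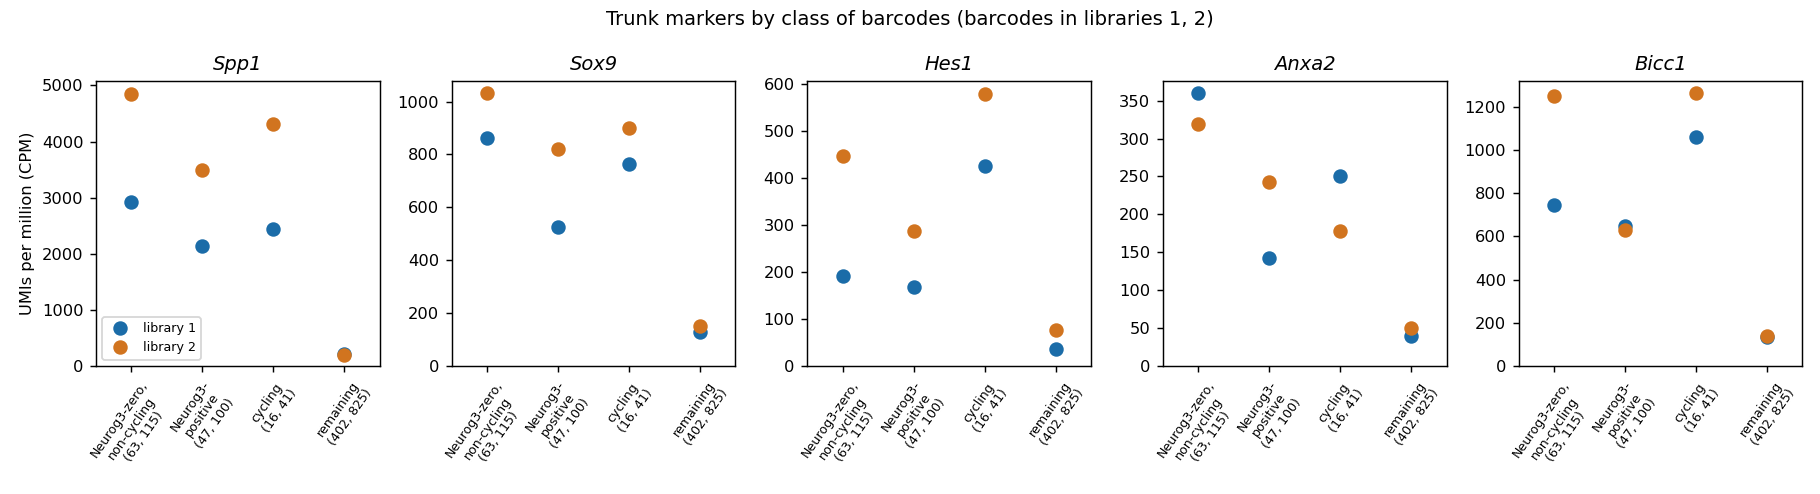
CPM of 5 trunk markers, summed over each class of barcodes, with 1 point for each library and the number of barcodes in brackets. Spp1 was used to choose the 3 trunk classes. The members lie above the remaining barcodes in both libraries for every marker shown, and close to the cycling trunk barcodes for Sox9.

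Markers of other cell types were low in the members but not absent. The immune markers C1qa and Tyrobp, a complement subunit and a signalling adaptor of macrophages, were at 0 in both libraries, and all 10 immune markers together reached 147 and 102 CPM in members, against 268 and 608 CPM in all other barcodes. No member held 5 or more immune UMIs. Mesenchymal markers summed to 139 and 92.1 CPM in members, against 239 and 561 CPM in all other barcodes. Endothelial markers summed to 82.4 and 95.4 CPM in members, against 108 and 183 CPM, and blood markers to 4.34 and 6.58 CPM, against 87.3 and 5.83 CPM. The 5 Schwann and neural markers were an exception in library 1, at 169 CPM in members against 132 CPM in all other barcodes, while library 2 had 85.5 CPM in members against 157 CPM. Of these, Sox10, a factor of neural crest and Schwann cells, was at 52.0 and 42.7 CPM in members, against 22.3 and 8.43 CPM in all other barcodes (log2 fold change 1.79 ± 0.45, adjusted p = 0.0218 by edgeR, with no adjusted p from DESeq2). A single member, in library 1, held 5 or more Schwann and neural UMIs, and the part of such RNA in the results was not tested. The 10 endocrine markers summed to 555 and 569 CPM in members, against 10654 and 13603 CPM in all other barcodes, and the 10 acinar and tip markers to 330 and 201 CPM, against 1020 and 3941 CPM. The endocrine sum was carried in part by a few barcodes. A single member of library 1 held 21 UMIs of Pyy, a peptide hormone, and a single member of library 2 held 37 of Sst, the gene of somatostatin. These hormones were not part of the rule, and 5 and 3 members held 5 or more endocrine UMIs. Results without such barcodes are given with the alternatives.

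How firmly a count of 0 for Neurog3 marks a cell depends on depth. Among non-cycling trunk barcodes, 57.3% in library 1 (63 of 110) and 53.5% in library 2 (115 of 215) held 0 Neurog3 UMIs. In library 2 this share was 67.2% (39 of 58) among barcodes of 1000 to under 2000 UMIs, 49 of 98 at 2000 to under 3500 and 45.8% (27 of 59) at 3500 or more. In library 1 the same 3 depths gave 6 of 10, 23 of 41 and 34 of 59. The share fell with depth in library 2 and showed no such order in library 1. Thinned to 1000 UMIs, 71.8% and 67.4% would have held 0. Free RNA or doublets would act in the other direction. A Neurog3 UMI was held by 33.3% of the 12 immune barcodes in library 1 and 14.1% of the 64 in library 2. In library 2, 1 barcode with 5 or more immune UMIs was itself a Neurog3-positive trunk barcode. The source of these Neurog3 UMIs was not tested.

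The members differed among themselves in Spp1, from 3 to 35 UMIs in library 1 and 3 to 38 in library 2. Split by Spp1 at 3 to 5, 6 to 11 and 12 or more UMIs, Sox9 stood at 667, 790 and 1032 CPM in library 1 and at 564, 1079 and 1128 CPM in library 2. Sox9 was thus lowest in the members with the least Spp1 in both libraries. Bicc1 stood at 794, 738 and 739 CPM in library 1 and at 1467, 1223 and 1213 CPM in library 2, with no rise along Spp1. Median depth moved with the split, at 2296.5, 3790.5 and 4384 UMIs in library 1 and 1782, 2266 and 2921 in library 2, and its part in these values was not tested. At the edge of the rule, the 5 and 10 members with 3 Spp1 UMIs had 617 and 508 CPM of Sox9 and 411 and 1241 CPM of Bicc1. The 8 and 2 barcodes just outside it, with 2 Spp1 UMIs, had 280 and 587 CPM of Sox9 and 746 and 1762 CPM of Bicc1. Barcodes on either side of the limit therefore overlapped in both genes, at 2 to 22 UMIs per gene and library.

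Against all other barcodes, the members were set apart by trunk, duct and matrix genes on one side and by endocrine genes on the other. UMIs were summed per library and class and tested with edgeR's quasi-likelihood test with library as a block. Of 13909 genes tested, 429 were higher (3.08%) and 374 lower (2.69%) in members at an adjusted p under 0.05, together 5.77% of genes. The direction matched between the libraries for 801 of these 803. The members were chosen on UMIs of the same barcodes, so a gene that varies with Spp1, Neurog3 or the hormone genes differs here by that choice, and the counts describe the members. DESeq2 called 180 higher and 141 lower. Genes of the rule were not tested. The median log2 fold change of all genes was 0.01.

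Progenitor transcription factors were higher in 9 of the 28 tested and lower in 1, with a median log2 fold change of 0.31. Sox9 (chromosome 11, 112782224 to 112787760, GRCm38) stood at 863 and 1032 CPM in members of libraries 1 and 2, against 201 and 250 CPM in all other barcodes, with no overlap. Its log2 fold change was 2.12 ± 0.12 (SE), adjusted p = 6.4e-09 by edgeR. Onecut1, a hepatocyte nuclear factor that acts before Neurog3, stood at 130 and 102 CPM in members and at 22.3 and 18.2 CPM in all others (log2 fold change 2.56 ± 0.33). Rest, which represses neuronal genes, had a log2 fold change of 2.14 ± 0.28. Tcf7l2, a transcription factor of the Wnt pathway, rose by 1.40 ± 0.18. Mnx1, a factor of early pancreas and beta cells, was the member of the list that fell, at 1 UMI in members of each library (4.34 and 3.29 CPM) and 31.3 and 27.9 CPM in all others. Pdx1 and Nkx6-1, which the trunk shares with beta cells, did not pass. Nkx6-1 stood at 234 and 279 CPM in members and at 315 and 321 CPM in all other barcodes.

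Genes of duct structure and transport were higher in 18 of 37 and lower in 1, with a median of 0.80. Bicc1 (chromosome 10, 70922832 to 71159700) stood at 746 and 1253 CPM in members, against 237 and 236 CPM in all others (2.11 ± 0.15). Anxa2 stood at 360 and 319 CPM in members, against 60.8 and 74.6 CPM (2.35 ± 0.21). Every member value was above every value of the other barcodes for both genes. Atp1b1, a subunit of the sodium pump, stood at 980 and 1046 CPM in members and at 307 and 324 CPM in all others (1.73 ± 0.11). Lurap1l rose by 2.27 ± 0.15 and Clu, a secreted chaperone, by 1.88 ± 0.14. The keratins of simple epithelia Krt18 and Krt8 rose by 1.49 ± 0.16 and 0.62 ± 0.12, while Krt7 and Krt19 did not pass. Krt7 stood at 208 and 220 CPM in members and at 225 and 217 CPM in all others. Ttr, a carrier of thyroid hormone that endocrine cells express strongly, was the member of the list that fell, with 390 and 467 CPM in members and 766 and 692 CPM in all others. Exons of Bicc1, Anxa2 and Atp1b1 overlap a gene on the other strand, and whether counting used strand is not given in the sources used here.

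Of the Hippo and YAP list, 5 of 28 were higher and 0 lower, with a median of 0.62. At an unadjusted p under 0.05 by edgeR, 13 were higher, beside 1248 of all 13909 genes tested. By DESeq2, 2 were higher and 0 lower, beside 180 and 141 of all genes tested. Cyr61, a secreted matrix protein and target of the co-activator YAP, stood at 481 and 832 CPM in members, against 71.1 and 124 CPM in all other barcodes. Its log2 fold change was 2.80 ± 0.15, adjusted p = 4.18e-09 by edgeR, and it had a UMI in 55.6% and 64.3% of members, against 8.33% and 15.6% of immune barcodes. The others were Wwc1, Ajuba, Fjx1 and Fat1, at 0.93 to 2.02. Yap1 itself stood at 95.4 and 171 CPM in members and at 78.9 and 66.1 CPM in all others and did not pass (adjusted p = 0.0644).

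Cyr61 is listed in RefSeq as Ccn1, and its promoter is shown because it was among the genes higher in members than in both all other barcodes and Neurog3-positive trunk barcodes. The 250 bases before the annotated start (chr3:145649986-145650235, minus strand, GRCm38.p6) hold 1 match in capitals, 103 bases before the start, to GGAATG or its reverse complement CATTCC, the motif that TEAD factors, the DNA-binding partners of YAP, are known for. Of 32851 promoters of this length in RefSeq, 12.6% hold it on either strand. The gene and the motif were picked after values were seen, from 6 motifs searched, and a match is a description of the letters only.
Cyr61: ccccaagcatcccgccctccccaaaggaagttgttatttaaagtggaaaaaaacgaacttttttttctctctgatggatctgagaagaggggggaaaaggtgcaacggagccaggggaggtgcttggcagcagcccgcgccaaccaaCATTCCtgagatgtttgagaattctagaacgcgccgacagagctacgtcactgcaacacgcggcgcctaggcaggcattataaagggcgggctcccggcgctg

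The Notch list moved in both directions, with 3 of 35 higher and 4 lower by edgeR. DESeq2 called Hes1 and Notch2 and 0 lower genes, with no adjusted p for Mfng, Maml3 and Nrarp. Hes1, the target of Notch, stood at 191 and 447 CPM in members, against 68.7 and 119 CPM in all other barcodes (1.78 ± 0.20). The members of library 2 were the highest and the others of library 1 the lowest, and the groups did not overlap. The receptor Notch2 stood at 139 and 109 CPM in members and at 43.4 and 39.2 CPM in all others (1.61 ± 0.29), and Nrarp, a Notch target that limits the pathway, rose by 1.80 ± 0.43. Those lower were Mfng, which modifies Notch receptors, Maml3, a co-activator, Dlk1, a non-canonical ligand, and Numbl, a Numb relative. The ligand Dll1 was seen at 2 UMIs in members of each library and did not pass here. Among the Id inhibitors, which bind and block bHLH factors, Id2 was higher (0.86 ± 0.21) in 4 tested, and DESeq2 called 0 of the 4.

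Matrix and integrin genes were higher in 11 of 37 and lower in 0, with a median of 0.67. Adamts1, a secreted protease of the matrix, stood at 663 and 996 CPM in members, against 151 and 179 CPM in all other barcodes (2.37 ± 0.14). Sparc, a collagen-binding matrix protein, rose by 1.46 ± 0.11, Lamc1, a laminin chain of basement membranes, by 1.52 ± 0.15 and Col18a1 by 1.74 ± 0.18. The sum of mesenchymal markers given above was lower in members than in all other barcodes in both libraries. Among its genes the fibrillar collagens Col1a1, Col1a2 and Col3a1 were each lower in both. Pdgfra (43.4 CPM in members, against 28.3 CPM) and Dcn were higher in members of library 1, and Pdgfrb in library 2. Twist1, at 1 UMI in members of each library, was higher in both. The part of mesenchymal RNA in the matrix results was not tested. Junction and polarity genes were higher in 11 of 41 and lower in 1, with the claudins Cldn3, Cldn6 and Cldn7 and E-cadherin (Cdh1, 0.87 ± 0.14) among those higher. Vim, the intermediate filament vimentin, rose by 1.76 ± 0.15. Gjd2, a connexin of beta cells and neurons, was the one that fell. Against Neurog3-positive trunk barcodes 0 of 27 matrix genes and 0 of 38 junction genes were called, and the same held against cycling trunk barcodes.

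Growth factor receptors were among the genes that rose against all other barcodes. Of the FGF and EGF list, 7 of 25 were higher and 1 lower in that comparison, and by DESeq2 4 were higher and 0 lower. Against Neurog3-positive trunk barcodes 0 of 18 FGF and EGF genes and 0 of 24 Wnt and planar polarity genes were called. The same counts held against cycling trunk barcodes. These rises were thus not called between the members and other trunk barcodes, which does not show that the classes are alike. Fgfr2, the receptor for FGF10 in pancreatic progenitors, stood at 429 and 352 CPM in members, against 111 and 83.6 CPM in all other barcodes (2.06 ± 0.18), and its annotated exons overlap those of Ctbp2 on the same strand. In Neurog3-positive trunk barcodes Fgfr2 stood at 262 and 263 CPM, and in cycling trunk barcodes at 450 and 468 CPM. Fgfr3, Fgfr4, Erbb2, Erbb3 and Igf1r were also higher, at 1.12 to 1.52. The Wnt and planar polarity list had 7 of 34 higher and 0 lower, among them the ligand Wnt7b (2.45 ± 0.35) and the receptor Fzd2 (1.59 ± 0.28). By DESeq2, 3 were higher and 0 lower. The BMP and TGF-beta list had 1 of 25 higher, Smad3, and 0 lower, with 0 called by DESeq2. The list of the primary cilium and polycystins had 1 of 40 higher, Dcdc2a (1.79 ± 0.21), and 0 lower. Both shares, 4% and 2.5%, were near the 3.08% of all genes tested that were higher.

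Genes of the cell cycle outside the rule moved in both directions. Of 25 D cyclins and cell cycle brakes, 7 were higher, namely Ccnd1, Ccnd2, Cdk6, Cdkn1c, Gas1, Gas2 and Gas5, and 2 lower, Myc and Mycl. DESeq2 called 5 of the 7 and gave the 2 lower genes no adjusted p. Ccnd1, the cyclin that drives entry into S phase, stood at 304 and 352 CPM in members, against 123 and 124 CPM in all other barcodes (1.45 ± 0.18), and its partner Cdk6 rose by 1.33 ± 0.23. Gas1 and Gas2, named for growth arrest, rose by 1.61 ± 0.29 and 1.67 ± 0.31, and Cdkn1c, an inhibitor of cyclin-dependent kinases, by 0.75 ± 0.21. The DNA replication list had 4 of 42 higher (Mcm4, Mcm5, Cdc45 and Hells, at 1.12 to 1.85) and 0 lower, of which DESeq2 called 0 and gave Cdc45 no adjusted p. Of 51 mitosis genes outside the rule, 0 passed in either direction by edgeR and by DESeq2. At an unadjusted p under 0.05 by edgeR, 0 were higher and 14 lower, beside 1248 and 1157 of all 13909 genes. Immediate-early and heat shock genes were split, with 9 of 31 higher and 2 lower. Fosb and Jun, subunits of AP-1, rose by 1.42 ± 0.17 and 1.03 ± 0.13, and the chaperones Hspa8 and Hsph1 fell by 0.53 and 0.83. Of 31 genes of glucose uptake and glycolysis, 4 were higher (Eno1, Ldhb, Aldoc and Tkt, at 0.74 to 1.83) and 1 lower, and by DESeq2 1 was higher and 1 lower. Against Neurog3-positive trunk barcodes 0 of 22 D cyclins and brakes were higher and 1, Mycl, was lower. Of 40 replication and 26 immediate-early and heat shock genes, 0 were called there. Against cycling trunk barcodes Gas5 was higher among the 22, and 0 of the 40 and 26 were called. Ccnd1 stood at 295 and 175 CPM in Neurog3-positive and at 250 and 201 CPM in cycling trunk barcodes. A lack of calls does not show that the classes are alike.

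The endocrine side was lower in members. Of the Neurog3 programme, 23 of 32 were lower and 0 higher, with a median of -1.96. Insm1 (chromosome 2, 146221921 to 146225020), a zinc finger factor directly downstream of Neurog3, stood at 60.7 and 62.5 CPM in members, against 581 and 546 CPM in all other barcodes (-3.14 ± 0.20). It had a UMI in 14.3% and 7.83% of members, against 8.33% and 12.5% of immune barcodes, a share at the level of free RNA in library 2 and within counting error of it in library 1. Isl1 and Neurod1, factors of maturing endocrine cells, fell by 3.55 and 3.42. Of granule and exocytosis genes, 25 of 36 were lower and 0 higher (median -2.05). Gnas, the stimulatory G protein, stood at 1093 and 967 CPM in members, against 4042 and 3854 CPM in all others (-1.90 ± 0.08). Pcsk2, which cuts prohormones, stood at 91.1 and 78.9 CPM in members, against 664 and 831 CPM in all others (-3.11 ± 0.18). The acinar and tip list, of which 10 of 28 genes were deep enough to test, had 2 lower, among them Cel, and 0 higher.

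**Figure D2:**
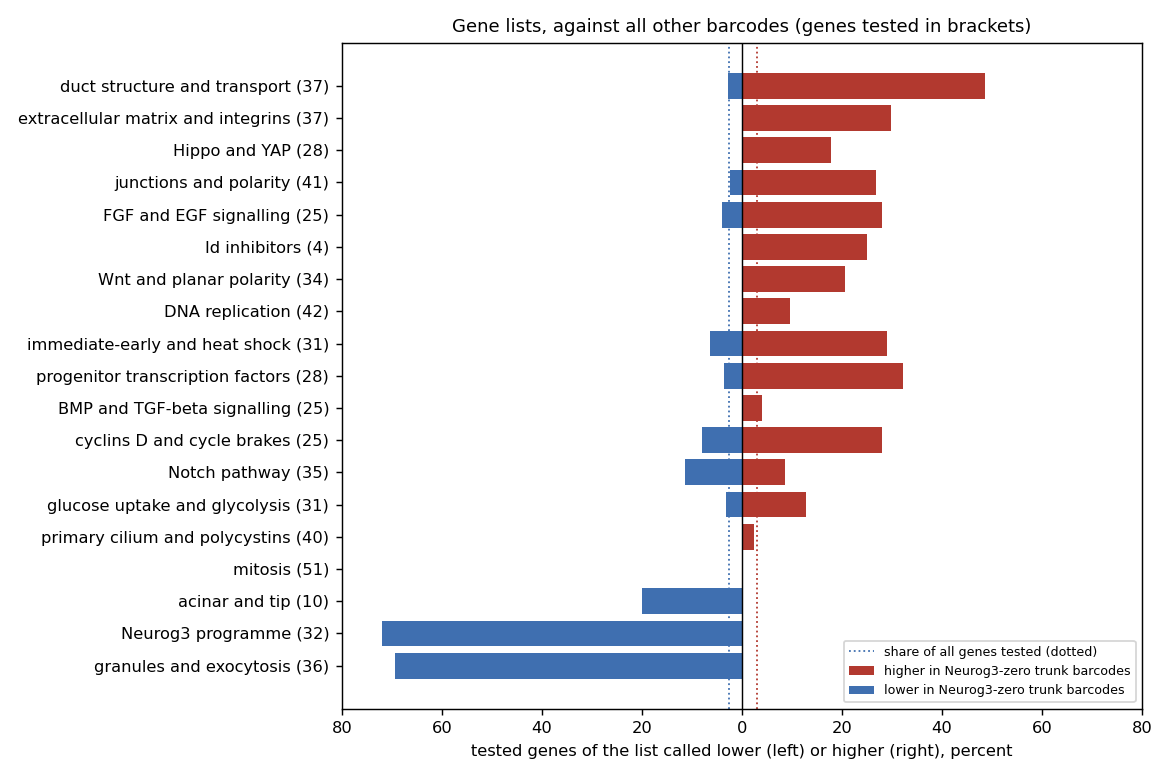
Share of the tested genes of each list that were lower (left, blue) or higher (right, red) in the members than in all other barcodes, with the number tested in brackets and dotted lines at the share over all genes tested, 2.69% lower and 3.08% higher. Lists run from the highest to the lowest median log2 fold change, and the Neurog3 programme and the granule genes stand apart on the left.

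Outside the lists, the largest rises among genes of at least 50 CPM were those of Smtnl2, Gdnf, Adamts16, Klk4, Sphk1, Has3, Mboat1 and Trip6, at log2 fold changes of 2.28 to 2.59. None of them was called higher in members than in Neurog3-positive or cycling trunk barcodes. Klk4 stood at 139 and 92.1 CPM in members, 131 and 71.3 CPM in Neurog3-positive and 125 and 89.2 CPM in cycling trunk barcodes. Has3 differed more, at 69.4 and 39.5 CPM, against 21.8 and 9.72 CPM and 12.5 and 14.9 CPM. Sphk1 differed between libraries, at 26.0 and 85.5 CPM in members (6 and 26 UMIs), against 14.45 and 9.08 CPM in all other barcodes, so its place rests on library 2. DESeq2 gave Sphk1 and Has3 no adjusted p. Smtnl2 stood at 330 and 487 CPM in members, against 71.7 and 68.7 CPM in all other barcodes. Gdnf, a neurotrophic ligand of the Ret receptor, stood at 82.4 and 148 CPM in members, against 22.3 and 22.0 CPM. The metallothioneins Mt1 and Mt2, which bind zinc and copper and were added after their values were seen, were higher too. Mt2 stood at 2129 and 2154 CPM in members, against 690 and 686 CPM in all other barcodes (1.68 ± 0.08). All of these member values lay above those of the class of all other barcodes.

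Among the largest falls were genes of hormone cells. Iapp, a peptide stored with insulin, stood at 21.7 and 29.6 CPM in members, against 555 and 1055 CPM in all other barcodes (-4.95 ± 0.22). Ghrl, the gene of ghrelin, stood at 13.0 and 16.4 CPM in members, against 439 and 379 CPM in all others (-4.71 ± 0.30). Abcc8, a subunit of the ATP-sensitive potassium channel, had 2 and 1 UMIs in members, against 221 and 507 UMIs in all others. Macrophage genes were among them too. C1qa had 0 UMIs in members and 348 in all others, which makes it at least 13.1-fold lower, with a floor of 3 UMIs over both libraries. Olfr1442 had 0 UMIs in members and 379 in all others (at least 14.2-fold lower), and Lyve1, Tmsb15b2 and Atp2a3 were seen at 1 or 2 UMIs in members.

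Neurog3-positive trunk barcodes differ from the members by the Neurog3 condition alone. The members had less of the early endocrine programme, and few genes were called in all. Because the classes were split on Neurog3 UMIs of the same barcodes, a gene that varies with Neurog3 differs here by that choice. The counts therefore describe how the members were chosen. The fit held 8 sums, 4 classes in each library, and the comparison with cycling trunk barcodes below uses the same member sums. Of 8351 genes tested, 49 were lower (0.587%) and 7 higher (0.0838%) in members, together 0.671% of genes. All 56 had 1 direction in both libraries. DESeq2 called 24 lower and 1 higher.

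The lower genes were led by the Neurog3 programme, 11 of the 31 tested in that list, with 0 higher and a median of -0.99. Insm1 stood at 60.7 and 62.5 CPM in members, against 578 and 668 CPM in Neurog3-positive trunk barcodes, a log2 fold change of -3.36 ± 0.25 (adjusted p = 9.95e-10 by edgeR). Gadd45a, a stress and growth arrest gene, stood at 30.4 and 72.3 CPM in members, against 355 and 574 CPM (-3.15 ± 0.32). The members lay below the Neurog3-positive barcodes in both libraries for both genes. Sox4, a factor that acts with Neurog3, stood at 728 and 740 CPM in members, against 1473 and 1731 CPM (-1.15 ± 0.14). Nkx2-2 fell by 1.73 and Pax4, which directs cells to the beta and delta fates, was seen at 1 UMI in members of each library, against 16 and 20 UMIs. Cdkn1a, an inhibitor of cyclin-dependent kinases, and Btg2, an antiproliferative gene, fell by 1.59 and 0.99. Neurod1, which follows later in the programme, stood at 17.3 and 23.0 CPM in members and at 60.0 and 32.4 CPM in Neurog3-positive barcodes and did not pass (adjusted p = 0.626).

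On the Notch side the ligand Dll1, the receptor modifier Mfng and the Numb relative Numbl were lower, and the target Hes1 was not called. Dll1, the Delta ligand that Neurog3-expressing cells present to their neighbours, had 2 UMIs in members of each library, against 16 and 35 UMIs in Neurog3-positive barcodes (8.67 and 6.58 CPM, against 87.3 and 113 CPM). Its log2 fold change was -3.75 ± 0.65, and Mfng and Numbl fell by 3.62 and 2.19, so that 3 of 28 genes of the list were lower and 0 higher. Hes1 stood at 191 and 447 CPM in members and at 169 and 288 CPM in Neurog3-positive barcodes, a log2 fold change of 0.45 ± 0.25 that did not pass (adjusted p = 0.666). Id1 was lower in members, at 65.0 and 52.6 CPM, against 186 and 185 CPM (-1.68 ± 0.37, adjusted p = 0.0186). Id1 did not pass by DESeq2 (adjusted p = 0.122), and DESeq2 also did not call Pax4, Btg2, Mfng, Numbl, Syt7 or Syt13. Mycl fell by 3.55. Of 28 granule genes 3 were lower and 0 higher, among them the synaptotagmins Syt7 and Syt13 of vesicle fusion, which fell by 1.84 and 1.54.

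The 7 genes higher in members were Hmga2, Atp1b1, Nfib, Gltp, Zranb2, Cyr61 and Klf6. Hmga2, a chromatin protein of embryonic and proliferating cells, stood at 898 and 559 CPM in members, against 327 and 314 CPM in Neurog3-positive barcodes (1.13 ± 0.20, adjusted p = 0.00187), and it was the gene that DESeq2 called. Cyr61 stood at 481 and 832 CPM in members, against 300 and 227 CPM (1.31 ± 0.30, adjusted p = 0.029), and Atp1b1 at 980 and 1046 CPM, against 475 and 632 CPM (0.85 ± 0.17). Nfib, a transcription factor of the nuclear factor I family, and Klf6 rose by 1.04 ± 0.22 and 1.49 ± 0.35. In each of these the lower library of the members lay above the higher library of the Neurog3-positive barcodes. Cyr61, Klf6, Atp1b1 and Nfib did not pass without the library block.

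The trunk markers themselves leaned higher in members without passing. Bicc1 had a log2 fold change of 0.62 ± 0.17 (95% interval 0.29 to 0.95, adjusted p = 0.0992), Sox9 of 0.48 ± 0.15 (0.18 to 0.78, adjusted p = 0.248) and Anxa2 of 0.76 ± 0.27 (0.24 to 1.29, adjusted p = 0.324). Of 29 duct genes 1 was higher and 0 lower. The mitosis list had 0 of 50 called in either direction by edgeR and by DESeq2. At an unadjusted p under 0.05 by edgeR, 4 were higher and 2 lower, beside 313 and 388 of all 8351 genes.

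Counting Neurog3 UMIs in finer steps showed where the genes differed. Non-cycling trunk barcodes with 0, 1, 2 to 4 and 5 or more Neurog3 UMIs numbered 63, 18, 11 and 18 in library 1 and 115, 32, 32 and 36 in library 2. The genes followed along these steps were chosen after a first look at their values, and the steps are described without a test. Insm1 stood at 60.7, 66.7, 466 and 993 CPM along these steps in library 1 and at 62.5, 255, 680 and 962 CPM in library 2. In library 1 barcodes with a single Neurog3 UMI were thus close to the members in Insm1, from 4 UMIs, though not in Sox4 or Hmga2. Sox4 stood at 728, 1167, 1604 and 1631 CPM in library 1 and at 740, 830, 1453 and 2610 CPM in library 2. Sox9 stood at 863, 600, 621 and 426 CPM in library 1 and at 1032, 1406, 910 and 318 CPM in library 2. In both libraries it was lowest at 5 or more Neurog3 UMIs, and in library 2 the members were not the highest. Hmga2 stood at 898, 400, 310 and 284 CPM in library 1 and at 559, 476, 335 and 179 CPM in library 2, highest in the members of each. Depth differed along the steps, with medians of 3728, 3360, 3589 and 4196.5 UMIs in library 1 and 2529, 2360, 2674 and 3182 in library 2, and its part in these values was not tested.

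**Figure D3:**
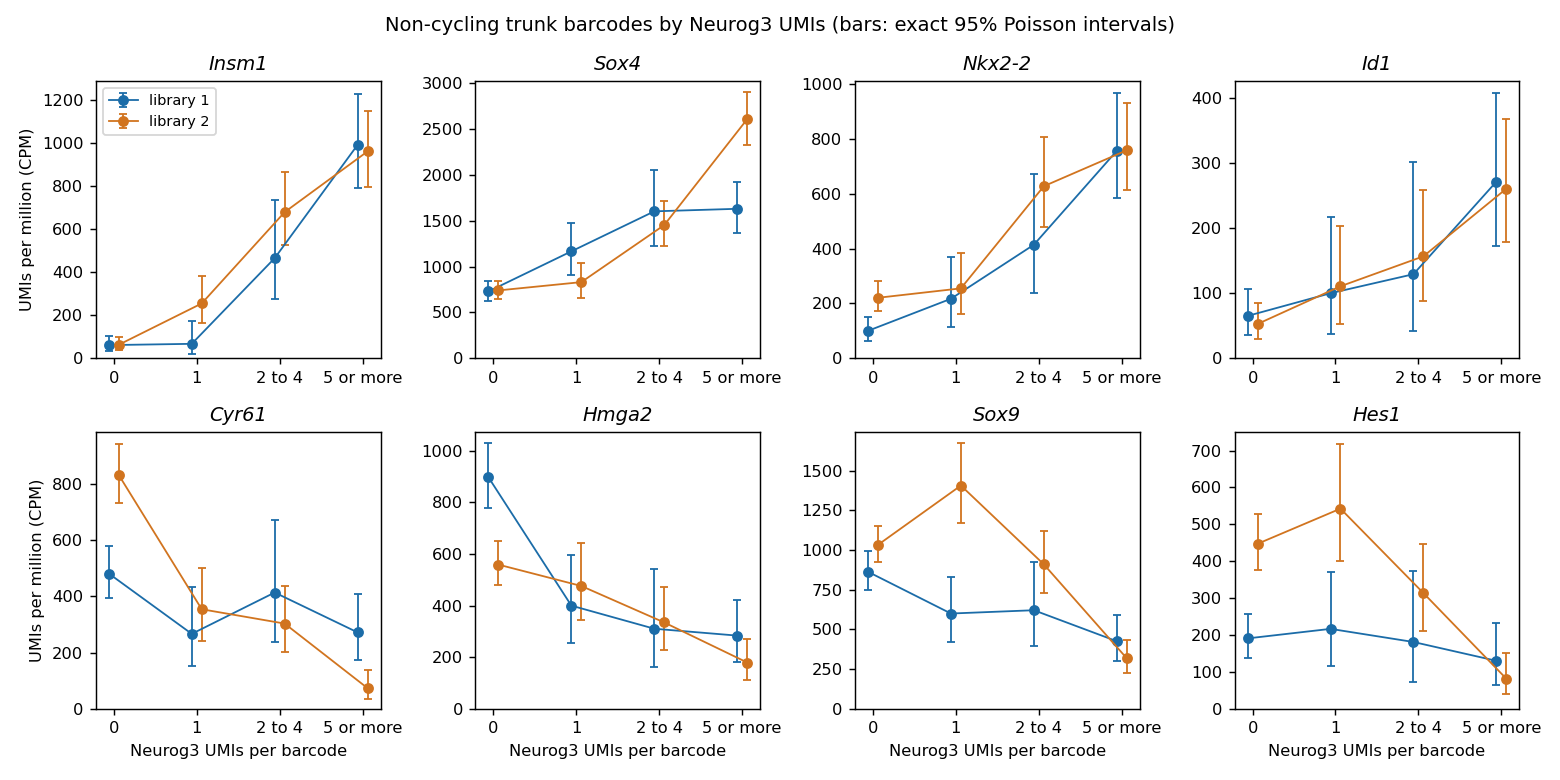
CPM of 8 genes in non-cycling trunk barcodes with 0 (the members), 1, 2 to 4 and 5 or more Neurog3 UMIs, by library, with exact 95% Poisson intervals that cover counting error only. Insm1, Sox4, Nkx2-2 and Id1 are lowest in the members and highest at 5 or more Neurog3 UMIs in both libraries, and Hmga2 is highest in the members of both.

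Cycling trunk barcodes differ from the members by the cell cycle sum alone, and mitosis genes outside that sum made up much of what differed. Of 8351 genes tested, 68 were lower (0.814%) and 8 higher (0.0958%) in members, together 0.91% of genes. Each had 1 direction in both libraries. DESeq2 called 53 lower and 0 higher. At an unadjusted p under 0.05 in edgeR, 423 genes were higher and 393 lower. Mitosis genes are known to be expressed together with those of the rule, so these counts describe how the members were chosen. All 50 tested mitosis genes had a negative log2 fold change (median -2.10), and 31 passed by edgeR and 28 by DESeq2.

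Hmgb2, a chromatin protein of dividing cells, stood at 364 and 519 CPM in members, against 1926 and 2112 CPM in cycling trunk barcodes, a log2 fold change of -2.16 ± 0.19 (adjusted p = 3.29e-08 by edgeR). It was still present in the members at 84 and 158 UMIs. Kif23, a kinesin of the dividing cell's midbody, stood at 39.0 and 19.7 CPM in members, against 363 and 290 CPM (-3.47 ± 0.44). Cdc20, which activates the anaphase-promoting complex, had 3 and 10 UMIs in members (13.0 and 32.9 CPM), against 25 and 25 UMIs in cycling barcodes (313 and 186 CPM). Groups did not overlap in any of these genes. Nek2, Kpna2, Incenp, Rad17, Depdc1a, Fam83d, Sec16b and Kif15, the largest falls outside the lists, had log2 fold changes of -3.32 to -4.44 and between 1 and 5 UMIs in members of each library.

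DNA replication genes were not called. Of 40 tested, 0 passed in either direction by edgeR and by DESeq2, while 33 had a negative log2 fold change (median -0.72). At an unadjusted p under 0.05 by edgeR, 0 were higher and 13 lower, beside 423 and 393 of all 8351 genes. Pcna, the sliding clamp of DNA polymerase, stood at 156 and 286 CPM in members and at 338 and 483 CPM in cycling barcodes (-0.87 ± 0.26, adjusted p = 0.151). Mcm5, a subunit of the replicative helicase, stood at 139 and 125 CPM in members and at 200 and 156 CPM in cycling barcodes (-0.37 ± 0.39, adjusted p = 0.837). The rule's cell cycle genes act mainly in G2 and mitosis, and 0 to 3 of their UMIs were seen in members of library 1 and 0 to 4 in library 2.

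The promoters of Hmgb2 and Cdc20 are shown because mitosis genes moved together in this comparison. Capitals mark TTTGAA or its reverse complement TTCAAA, the core of the cell cycle homology region, an element known from promoters of genes active in G2 and mitosis. The 250 bases before the start of Hmgb2 (chr8:57511593-57511842, plus strand, GRCm38.p6) hold it 218 and 30 bases before the start, and those of Cdc20 (chr4:118437344-118437593, minus strand) 18 bases before it. Of 32851 RefSeq promoters, 16.0% hold it on either strand. Both genes and the motif were picked after values were seen, from the 6 motifs searched. Shares over the called genes are void, since only 54 of the 68 lower genes (79.4%) matched a RefSeq promoter.
Hmgb2: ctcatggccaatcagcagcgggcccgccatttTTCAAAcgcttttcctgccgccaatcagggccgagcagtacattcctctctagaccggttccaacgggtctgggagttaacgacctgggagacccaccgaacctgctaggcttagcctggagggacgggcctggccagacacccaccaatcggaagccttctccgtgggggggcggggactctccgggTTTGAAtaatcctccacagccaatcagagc
Cdc20: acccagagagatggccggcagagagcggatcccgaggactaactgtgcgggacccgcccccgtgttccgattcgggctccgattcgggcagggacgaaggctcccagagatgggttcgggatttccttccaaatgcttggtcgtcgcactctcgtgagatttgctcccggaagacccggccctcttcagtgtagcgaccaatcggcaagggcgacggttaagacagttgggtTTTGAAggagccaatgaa

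Trunk and duct genes were not called between members and cycling trunk barcodes, with 0 of 24 progenitor factors and 0 of 29 duct genes by edgeR and by DESeq2. At an unadjusted p under 0.05 by edgeR the progenitor list had 0 higher and 2 lower, and the duct list 6 higher and 0 lower. Over all 8351 genes tested, 423 were higher and 393 lower at that limit. Sox9 stood at 863 and 1032 CPM in members and at 763 and 900 CPM in cycling barcodes, a log2 fold change of 0.22 ± 0.17 (95% interval -0.10 to 0.55, adjusted p = 0.751). Hes1 leaned the other way, at 191 and 447 CPM in members and 425 and 580 CPM in cycling barcodes (-0.64 ± 0.25, interval -1.14 to -0.15, adjusted p = 0.346). Cyr61 differed between libraries, at 481 and 832 CPM in members and at 163 and 855 CPM in cycling barcodes, the first of these from 13 UMIs in 16 barcodes. These intervals do not show that the classes are alike.

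The 8 genes higher in members were Gas5, Firre, Rpl10, Rps18, Rps3a1, Eef1a1, Marcksl1 and Wdr24. Gas5, a growth arrest RNA that hosts small nucleolar RNAs, stood at 304 and 401 CPM in members, against 175 and 96.7 CPM in cycling barcodes (1.51 ± 0.32, adjusted p = 0.0102). Firre, a long noncoding RNA, had 38 and 44 UMIs in members, against 3 and 5 UMIs (2.05 ± 0.50, adjusted p = 0.0422). Rpl10, Rps18, Rps3a1 and Eef1a1, parts of the ribosome and its elongation factor, rose by 0.44 to 0.72, and Marcksl1 and Wdr24 by 0.62 and 0.56. The ribosomal genes and Eef1a1 have near-identical copies in the genome, among which counting may have divided their UMIs. DESeq2 called 0 of the 8, and 2 genes were higher without the library block.

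**Figure D4:**
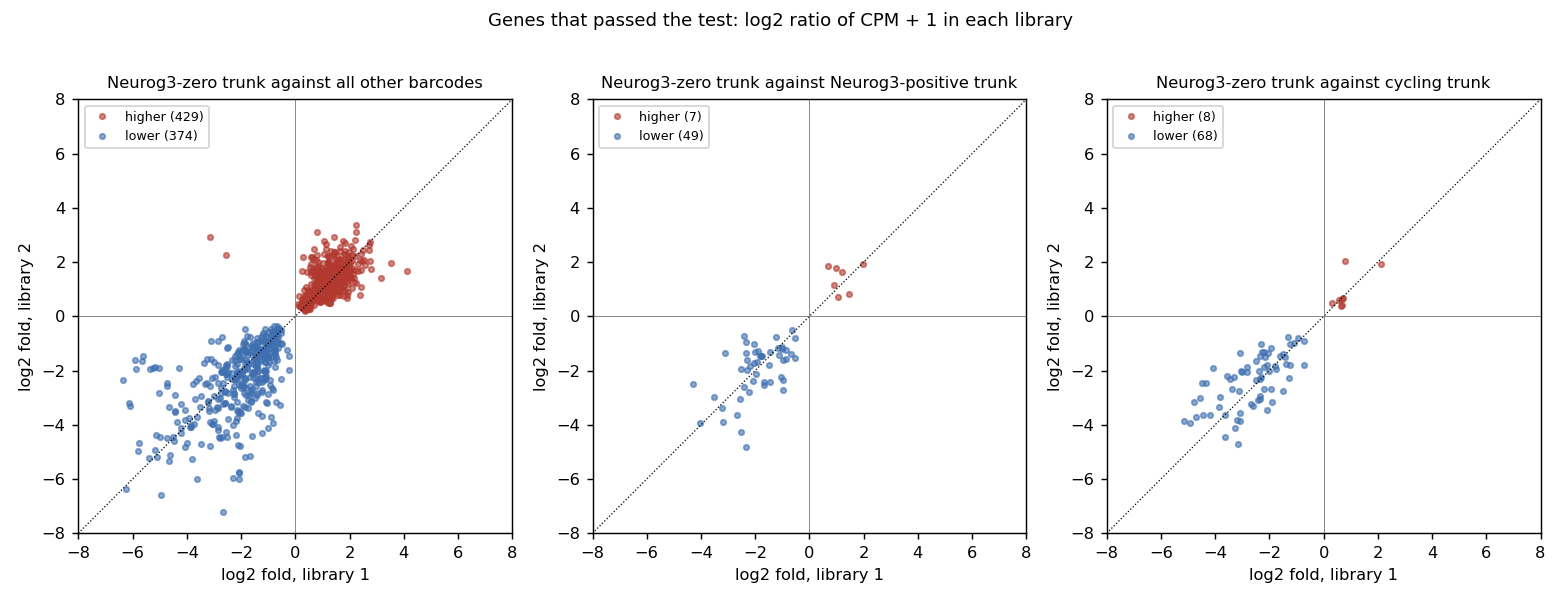
Log2 ratio of CPM + 1 in the members over the comparison class in library 1 (horizontal) and library 2 (vertical), for each gene that passed the test, with the dotted line at equal ratios. In the first panel 801 of 803 genes lie in the quadrants of equal sign, and in the other panels all 56 and all 76 do.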

How the data were processed

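The deposited files hold raw UMI counts per gene symbol and barcode, 1 table of 25507 symbols per library, which the authors aligned to GRCm38 per the submitters' processing notes. Per the labels' protocols, sorted cells were encapsulated by inDrop and amplified linearly as in CEL-Seq, and the deposited counts total 1910588 and 3425983 UMIs. Not given in the sources used here: the aligner, the annotation, the barcode filter and any use of strand. The members, gene lists and tests were chosen with earlier results of these data known.

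UMIs were summed per library and class, and CPM divide a gene's UMIs by that sum and scale the result to 1000000. EdgeR 4.0.16, under R 4.3.3, fitted the sums with its quasi-likelihood model, TMM scaling, filterByExpr to drop low genes and library as a block, since both classes of a comparison come from the same libraries. The fit against all other barcodes had 4 sums and 1 residual degree of freedom, and the fit of 4 classes had 8 sums and 3. Each gene's spread is drawn toward one shared over genes. P-values were adjusted by Benjamini-Hochberg over all genes tested, with a threshold of 0.05. Genes of the rule and mt- genes stayed in the library sizes and were not tested. Log2 fold changes are members minus the comparison class, and an SE is the absolute log2 fold change over the square root of F. The fits were also run on simulated sums, in which no barcodes were chosen by their own counts. That run therefore cannot show what the rule does to the comparisons. The 19 gene lists held 654 entries, of which 645 have a row, and no set test was made.

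Named genes passed with the same sign in both libraries. Per comparison they were up to 2 per list by adjusted p, at most 20 in all, and the 8 largest rises and 8 largest falls outside the lists, leaving out Gm and Rik symbols and genes under 50 CPM in both classes. They number 74, and not all are given values. A few genes within the counts are not reported here by name. Other list members named as examples, and the genes followed along Spp1 or Neurog3 UMIs, were picked once values had been seen. GENCODE M21, on GRCm38, gave positions for 73 of the 74. Exons of 6 overlap another gene on the same strand and those of 18 on the other strand. Alternatives were DESeq2 1.42.0 and those listed in the closing section. Doublets were called with Scrublet in scanpy 1.11.5 and kept. Sums and figures were made in Python 3.11.15 with pandas 2.3.3, scipy 1.17.1, matplotlib 3.10.9 and numpy 2.4.6.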

Additional observations from a re-analysis of the deposited data

How the results depend on the processing

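Against all other barcodes, 803 genes were called, DESeq2 called 321 (all 321 among the 803), and the other settings gave 574 to 1140. Against Neurog3-positive trunk barcodes the 56 calls became 25 with DESeq2, 85 with no filter on low counts and 30 with every barcode thinned to 1000 UMIs. Against cycling trunk barcodes the 76 calls became 119 with no filter and 23 when thinned. Thinning left 2506 genes to test in these comparisons, in place of 8351. Without the library block, 576, 40 and 59 genes were called in the 3 comparisons. Higher and lower calls were joined into these totals after both had been seen, and the few higher genes moved more than the totals do. Against Neurog3-positive barcodes the 7 higher genes became 1 with DESeq2, 3 without the block, 4 when thinned and 15 with no filter. Against cycling barcodes the 8 higher genes became 0 with DESeq2, 2 without the block, 5 with DESeq2's size factors in edgeR and 53 with no filter.

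The share of members was 9.57% with Spp1 at 5 or more UMIs, 12.4% without barcodes that held 3 or more UMIs of another cell type's markers, and 10.6% to 11.9% by single library. Leaving out trunk barcodes with 5 or more endocrine UMIs, chosen after seeing the data, gave 1140, 61 and 73 calls. A test without either library was not possible, because no residual degrees of freedom would remain. Of the 77 named results, 0 changed sign in any setting that gave a value. They were chosen with the same sign in both libraries, so leaving out a library could not change a sign. The other settings refit the same barcodes or a part of them. DESeq2 lost 23 and gave 6 no adjusted p, thinning lost 22 and left 12 untested, and fits without the block lost 12. Each of the other settings lost 0 to 9. Without library 1, 15 fold changes moved by more than the SD between libraries, and without library 2, 21 did. The calls that DESeq2 lost include 6 of the 7 higher genes against Neurog3-positive barcodes and all 8 higher genes against cycling barcodes. The causes were not tested. Depth limits genes seen at a few UMIs, such as Pax4, Dll1 and Nek2, where single molecules set the values, and the 16 cycling barcodes of library 1.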
